A study of Homo sapiens with 18 samples.

Results

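The 5 genes that encode the NFκB subunits, RELA, RELB, REL, NFKB1 and NFKB2, were followed across 18 RNA sequencing libraries of RKO cells, an established human colorectal carcinoma line. Each gene was found by matching the transcript identifier of its row in the count lists to its gene symbol, which gave 5 of the 20802 counted targets, 1 target per gene. The cells had been transfected with 30 nM of 1 siRNA by lipofection and were collected after 72 h. There were 6 siRNA groups of 3 replicates. The siRNAs siTsg101#1 and siTsg101#2 target Tsg101, siVps28#1 and siVps28#2 target Vps28, and siCtrl#1 and siCtrl#2 are nontargeting. Tsg101 and Vps28 are subunits of ESCRT-I, a complex that sorts ubiquitylated membrane proteins into endosomes for lysosomal degradation. All groups were thus transfected cells of the same line, untransfected cells were not among the libraries, and each siRNA was a transient knockdown. The replicate number was also given as the batch, and every batch held 1 library of each siRNA. The study describes its RNA sequencing replicates as independent experiments.

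NFκB transcription factors are dimers of these subunits that share a Rel homology domain for DNA binding and dimerisation. RELA, RELB and REL carry transactivation domains, whereas NFKB1 and NFKB2 encode the precursors p105 and p100, which are processed to the DNA-binding subunits p50 and p52. In the canonical pathway, the IκB kinase complex marks IκB proteins for degradation and releases mainly RELA and REL dimers with p50, whereas the noncanonical pathway, controlled by the kinase NIK, acts through p100 processing and RELB with p52. Transcripts of several subunits and inhibitors are themselves known NFκB targets, and receptors that feed the pathway are cleared from endosomes by the ESCRT machinery. The libraries measure transcript levels and carry no measure of subunit protein, processing or nuclear entry.

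The sequences just before the transcription starts of the subunit genes are shown because the transcripts of most of these genes moved together, as described below. They are the 250 bases before annotated starts in RefSeq (GRCh38.p14), and 4 of the 5 genes were matched to them by symbol, with 8 starts in all. RELB was the gene without a window and was not searched. The windows were searched on both strands for the κB consensus, the 10-base NFκB-binding motif, and matches are in capitals (overlapping matches on opposite strands form 1 longer run).
REL, chr2:60881324-60881573 (plus strand): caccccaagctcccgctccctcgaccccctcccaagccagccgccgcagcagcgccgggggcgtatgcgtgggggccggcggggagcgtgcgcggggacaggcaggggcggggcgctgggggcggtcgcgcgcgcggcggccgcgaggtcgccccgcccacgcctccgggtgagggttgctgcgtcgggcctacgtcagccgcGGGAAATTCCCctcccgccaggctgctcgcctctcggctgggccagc
NFKB1, start 1, chr4:102501109-102501358 (plus strand): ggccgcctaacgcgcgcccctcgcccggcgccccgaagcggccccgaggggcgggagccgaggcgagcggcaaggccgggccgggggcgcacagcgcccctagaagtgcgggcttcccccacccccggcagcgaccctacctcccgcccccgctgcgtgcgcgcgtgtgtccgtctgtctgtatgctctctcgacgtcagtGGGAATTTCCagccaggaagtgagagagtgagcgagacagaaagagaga
NFKB2, start 2, chr10:102394328-102394577 (plus strand): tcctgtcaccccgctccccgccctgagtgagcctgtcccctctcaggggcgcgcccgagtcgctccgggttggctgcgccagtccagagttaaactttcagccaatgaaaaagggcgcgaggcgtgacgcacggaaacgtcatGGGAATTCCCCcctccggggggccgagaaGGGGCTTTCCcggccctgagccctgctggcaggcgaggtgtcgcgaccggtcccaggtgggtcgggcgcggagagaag
NFKB2, start 3, chr10:102395455-102395704 (plus strand): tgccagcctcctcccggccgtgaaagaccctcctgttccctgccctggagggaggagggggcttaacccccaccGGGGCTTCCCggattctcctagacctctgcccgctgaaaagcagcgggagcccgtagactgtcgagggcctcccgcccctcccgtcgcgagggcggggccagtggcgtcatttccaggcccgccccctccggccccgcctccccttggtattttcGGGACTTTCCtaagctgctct
RELA, downstream start, chr11:65662917-65663166 (minus strand): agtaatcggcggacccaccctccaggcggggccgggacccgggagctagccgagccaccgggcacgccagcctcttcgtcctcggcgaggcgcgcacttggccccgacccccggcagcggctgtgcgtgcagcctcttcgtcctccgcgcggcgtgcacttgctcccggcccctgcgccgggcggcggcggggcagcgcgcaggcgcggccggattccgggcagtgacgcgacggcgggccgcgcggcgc
A match was found at 4 of the 8 starts, compared with 9.96% of 35116 windows of the same length and 11.8% of 27305 genes. The REL match lay 47 to 38 bases before the start and the NFKB1 match 49 to 40 bases before its start 1. NFKB2 had matches 107 to 98 and 78 to 69 bases before its start 2, and 176 to 167 and 21 to 12 bases before its start 3 (starts are numbered along the gene). Neither of the 2 RELA windows held a match, and the downstream one is shown for comparison. The windows of NFKB1 start 2 and NFKB2 start 1 also held no match, and they and the upstream RELA window are not shown. As RELB was not searched, the windows do not separate the raised subunit genes from RELA. A match of letters describes the window only and is no measure of binding.

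The libraries held between 2561790 and 7466916 reads counted on genes (median, 5022216), and 10212 coding genes with more than 100 counts over all libraries were tested, all 5 subunit genes among them. TSG101 measured 2.49 to 4.99 CPM (read counts scaled to a common library size) in the siTsg101 libraries against 74.5 to 167 in all others, and VPS28 3.48 to 7.78 CPM in the siVps28 libraries against 65.1 to 112 in all others, so that every library fitted its label as to the siRNA target. These levels cannot check the siRNA number or the replicate number. Of the epithelial markers, KRT18, KRT8 and EPCAM were detected in every library and CDH1 was at 0 counts in all of them, as KRT19 nearly was (at most 1 count). Of the intestinal markers only the factor CDX2 was detected in every library (21.0 to 36.9 CPM), whereas LGR5 was at 0 counts and CDX1, VIL1 and MUC2 had at most 2 counts in any library. Among the haematopoietic markers PTPRC was at 0 counts everywhere, and CD68, which is also a lysosomal membrane protein of other cells, measured 471 to 987 CPM in nontargeting and 658 to 1677 CPM in on-target libraries, and its part in the results was not tested. The summed fibroblast and endothelial markers stayed at or below 1.61 CPM. One library stood apart: in siVps28#2 replicate 3, 39 genes lay at least 8-fold below both other replicates of the group, compared with 0 to 10 genes in each other library, and no gene lay above them by that fold. NFKB2 was 1 of the 39, and no other subunit gene was. Each result on NFKB2 is therefore given with and without this library.

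Depletion of ESCRT-I subunits was accompanied by higher transcript levels of RELB, NFKB1, REL and NFKB2, whereas RELA did not pass the test against siCtrl#1. Averaged over the 4 on-target siRNAs and relative to siCtrl#1, RELB was 2.89-fold, NFKB2 2.61-fold, NFKB1 1.97-fold and REL 1.73-fold higher, and RELA measured 1.21-fold (adjusted p = 0.24). A gene was called when its change reached 1.5-fold with an adjusted p under 0.05 in edgeR's quasi-likelihood test, adjusted over all genes tested. By this rule 4 of the 5 subunit genes were called higher and 0 lower in the mean of the 4 siRNAs, whereas 8.56% of all genes tested were called higher and 6.54% lower. The 5 genes were chosen with earlier results of these data known, so that such shares are a description. By single siRNA, 4 of 5 were called higher with siTsg101#1 (11.8% of all genes), 3 with siTsg101#2 (10.4%), 3 with siVps28#1 (4.92%) and 3 with siVps28#2 (7.09%). Without siVps28#2 replicate 3, NFKB2 joined both siVps28 lists, which made 4 with siVps28#1 (5.08% of all genes) and 4 with siVps28#2 (6.07%). RELB and NFKB1 were called higher with all 4 on-target siRNAs, as were 264 genes in all (2.59%). Without siVps28#2 replicate 3, NFKB2 joined them, among 254 genes (2.50%), and without siCtrl#1 replicate 1 RELB was the only one. The median log2 fold change of all genes tested was -0.0035, which the scaling to a common library size sets near 0. Between siCtrl#2 and siCtrl#1, 0 of the 5 subunit genes were called by edgeR or DESeq2 and 0 had an unadjusted p under 0.05. Of all genes 2.09% were called in either direction, so that 0 of 5 is not particular to the subunits. The RNA came from whole cultures, in which a higher level per cell and more cells with the transcript cannot be told apart. Levels are not compared between genes, since each target is read through its own amplicon.

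**Figure D1:**
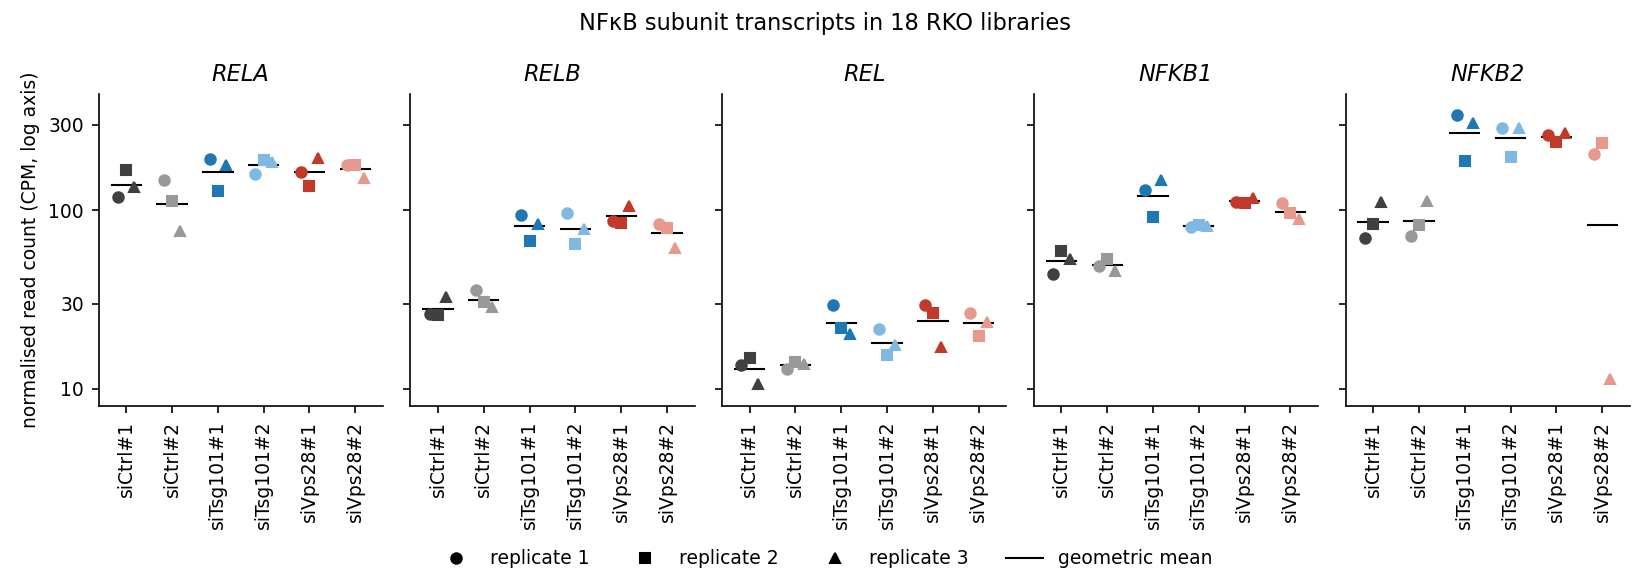
Normalised read counts of the 5 NFκB subunit transcripts in each of the 18 libraries, in CPM on a log axis, by siRNA group, with the replicate number as the symbol and the geometric mean of 3 libraries as a line. RELB, REL and NFKB1 lie higher in all 12 on-target libraries than in all 6 nontargeting ones, as do 1.96% of all genes tested. NFKB2 lies higher in 11 of 12, with siVps28#2 replicate 3 at 11.3 CPM, and the RELA groups overlap.

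RELA encodes p65, the main transactivating partner of p50 in the canonical pathway. The gene (ENSG00000173039) lies on the minus strand of chr11:65421070-65430561 (GRCh37), where 103 of its exon bases overlap an antisense gene. RELA measured 119, 168 and 135 CPM with siCtrl#1 in replicates 1, 2 and 3, and 147, 113 and 76.9 CPM with siCtrl#2. It reached 194, 128 and 179 CPM with siTsg101#1, and 159, 192 and 187 CPM with siTsg101#2. The siTsg101 libraries lay mostly in the upper part of the control range or above it. With siVps28#1 the levels were 164, 136 and 196 CPM, and with siVps28#2 they were 178, 179 and 152 CPM. The groups overlapped, with 7 of the 12 on-target libraries above all 6 nontargeting ones, and in 2 of 3 batches every on-target library exceeded both controls. The share of all genes with such a partial separation was not counted. Against siCtrl#1 the log2 fold changes of single siRNAs were between 0.23 and 0.35 (adjusted p between 0.231 and 0.554), and their mean was 0.28 ± 0.17 (SE; 95% confidence interval, -0.065 to 0.62). The nontargeting groups differed in RELA by -0.33 ± 0.21 on the log2 scale (siCtrl#2 minus siCtrl#1, adjusted p = 0.498). With siCtrl#2 as the reference the mean of the 4 siRNAs was 0.60 on the log2 scale with an adjusted p of 0.0164 and was called, and of the single siRNAs only siTsg101#2 was (0.68, adjusted p = 0.0251). With siCtrl#1 and siCtrl#2 together as the reference the mean was 0.44 (95% confidence interval, 0.18 to 0.70; edgeR, adjusted p = 0.012). It was not called, since it fell short of 1.5-fold. Whether RELA is called thus depended on which nontargeting siRNA was the reference.

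RELB encodes the partner of p52 in the noncanonical pathway. Its gene (ENSG00000104856) lies on the plus strand of chr19:45504719-45541450 (GRCh37) and shares no 50-base stretch of exon sequence with another gene. RELB measured 26.3, 25.8 and 32.7 CPM with siCtrl#1, and 35.9, 30.5 and 28.7 CPM with siCtrl#2. It measured 94.1, 67.4 and 84.0 CPM with siTsg101#1, and 96.0, 64.8 and 78.8 CPM with siTsg101#2. Every siTsg101 library was thus well above every control. With siVps28#1 the levels were 87.1, 85.2 and 106 CPM, and with siVps28#2 they were 83.5, 79.8 and 61.3 CPM. All 12 on-target libraries were above all 6 nontargeting ones, which held for 1.96% of all genes tested, and so also within each of the 3 batches. The log2 fold change against siCtrl#1 was 1.52 ± 0.19 (SE) for siTsg101#1 and 1.49 ± 0.19 for siTsg101#2, and 1.71 ± 0.19 for siVps28#1 and 1.40 ± 0.19 for siVps28#2, with adjusted p-values between 2.85e-06 and 1.95e-05. The mean of the 4 was 1.53 (95% confidence interval, 1.20 to 1.86; adjusted p = 4.89e-07). RELB passed the threshold in all 8 contrasts of an on-target with a nontargeting siRNA, and no alternative in the choice of test, scaling, filter, reference or library changed a call of RELB against the controls.

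REL encodes c-Rel, which is best known from lymphoid cells, and its transcript had the fewest reads of the 5 (48 to 164 counts per library). The gene (ENSG00000162924) lies on the plus strand of chr2:61108626-61158747 (GRCh37). Of its exon bases 5702 are overlapped by another gene on the same strand, and 33.1% of its 50-base stretches occur elsewhere in annotated transcripts. Whether its amplicon lies in a shared part was not analysed here. REL measured 13.6, 14.8 and 10.6 CPM with siCtrl#1, and 12.9, 14.1 and 13.7 CPM with siCtrl#2. It rose to 29.5, 21.8 and 20.2 CPM with siTsg101#1, whereas siTsg101#2 gave 21.5, 15.4 and 17.5 CPM. The lowest of these lay close to the highest control. With siVps28#1 the levels were 29.6, 26.7 and 17.2 CPM, and with siVps28#2 they were 26.6, 19.8 and 23.8 CPM. All 12 on-target libraries were above all 6 nontargeting ones (1.96% of all genes tested) and so also in each batch, although the gap between 14.8 and 15.4 CPM was small. REL was called higher with siTsg101#1 (log2 fold change, 0.87 ± 0.23 (SE); adjusted p = 0.00701), siVps28#1 (0.92 ± 0.23; adjusted p = 0.0107) and siVps28#2 (0.87 ± 0.22; adjusted p = 0.00902). With siTsg101#2 the log2 fold change was 0.50 ± 0.22 and the adjusted p was 0.12. The siVps28#1 call was lost without siVps28#1 replicate 1 (0.77, adjusted p = 0.0666) or siCtrl#1 replicate 3 (0.78, adjusted p = 0.0637), and the siVps28#2 call was lost without siCtrl#1 replicate 3 (0.72, adjusted p = 0.0606). The mean of the 4 siRNAs was 0.79 (95% confidence interval, 0.40 to 1.17; adjusted p = 0.00334).

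NFKB1 encodes p105, the precursor of p50, and p105 itself can hold Rel subunits in the cytoplasm. The gene (ENSG00000109320) lies on the plus strand of chr4:103422487-103538459 (GRCh37). NFKB1 measured 44.0, 59.3 and 53.4 CPM with siCtrl#1, and 48.5, 53.2 and 45.9 CPM with siCtrl#2. It measured 129, 91.3 and 148 CPM with siTsg101#1, and 80.8, 82.5 and 81.9 CPM with siTsg101#2. The siTsg101#2 libraries were close to each other and below every siTsg101#1 library. With siVps28#1 the levels were 111, 109 and 117 CPM, and with siVps28#2 they were 109, 96.7 and 89.6 CPM. All 12 on-target libraries were above all 6 nontargeting ones (1.96% of all genes tested), and so also in each batch. The log2 fold change against siCtrl#1 was 1.24 ± 0.17 (SE; adjusted p = 8.99e-06) with siTsg101#1, 1.11 ± 0.17 (adjusted p = 1.12e-04) with siVps28#1 and 0.92 ± 0.17 (adjusted p = 5.14e-04) with siVps28#2. With siTsg101#2 it was 0.65 ± 0.17 (adjusted p = 0.00736), and this call was lost without siCtrl#1 replicate 1 (0.53, adjusted p = 0.0527). The mean of the 4 siRNAs was 0.98 (95% confidence interval, 0.69 to 1.27; adjusted p = 2.16e-05). NFKB1 was also the only subunit gene that differed between siRNAs to the same target: it was lower with siTsg101#2 than with siTsg101#1 (log2 difference, -0.59 ± 0.16; adjusted p = 0.0247), a contrast in which 6.99% of all genes were called in either direction. That call was lost when any 1 of 5 of these 6 libraries was left out, siTsg101#1 replicate 2 excepted (-0.43 to -0.62, adjusted p between 0.0584 and 0.191).

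NFKB2 encodes p100, the precursor of p52, which also acts as an inhibitor that holds RELB in the cytoplasm. The gene (ENSG00000077150) lies on the plus strand of chr10:104153867-104162281 (GRCh37). NFKB2 measured 69.8, 83.3 and 111 CPM with siCtrl#1, and 72.0, 82.2 and 112 CPM with siCtrl#2. It measured 339, 189 and 308 CPM with siTsg101#1, and 287, 198 and 287 CPM with siTsg101#2. All siTsg101 libraries were far above the controls. With siVps28#1 the levels were 264, 241 and 270 CPM, whereas siVps28#2 gave 207, 239 and 11.3 CPM. The last value rested on 65 counts (95% Poisson interval, 50.2 to 82.8, counting error only), 18.4-fold below the lower of the other 2 replicates and 6.19-fold below the lowest of all other libraries. In the same library RELA, RELB and NFKB1 were also the lowest of their group, at 152, 61.3 and 89.6 CPM, and REL lay between its other replicates. The cause of this drop was not tested. With all libraries the log2 fold change against siCtrl#1 was 1.66 ± 0.51 (SE; adjusted p = 0.0194) for siTsg101#1 and 1.54 ± 0.51 (adjusted p = 0.0341) for siTsg101#2. It was 1.55 ± 0.51 (adjusted p = 0.057) for siVps28#1 and 0.79 ± 0.50 (adjusted p = 0.327) for siVps28#2. Without siVps28#2 replicate 3 the standard errors fell to between 0.22 and 0.23 and all 4 siRNAs were called, with 1.65 (adjusted p = 5.91e-06), 1.53 (adjusted p = 1.94e-05), 1.55 (adjusted p = 4.39e-05) and 1.34 (adjusted p = 5.10e-04), in the same order. The mean of the 4 was 1.38 ± 0.44 (adjusted p = 0.0231) with this library and 1.52 ± 0.19 (adjusted p = 3.91e-06) without it.

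While siVps28#2 replicate 3 was kept, other single libraries also decided NFKB2 calls. The mean of the 4 siRNAs lost its call without siCtrl#1 replicate 1 (1.24, adjusted p = 0.117) or replicate 2 (1.34, adjusted p = 0.0937). The siTsg101#1 call was lost without siCtrl#1 replicate 1 (1.51, adjusted p = 0.0808) or replicate 2 (1.61, adjusted p = 0.0619), and without siTsg101#1 replicate 1 (1.49, adjusted p = 0.0643) or replicate 3 (1.58, adjusted p = 0.0556). The siTsg101#2 call was lost without replicate 1, 2 or 3 of siCtrl#1 (adjusted p = 0.121, 0.0997 and 0.0524, with 1.39, 1.49 and 1.74 on the log2 scale) and without replicate 1 or 3 of siTsg101#2 (1.45 in both, adjusted p = 0.0861 and 0.0803). The siVps28#1 call was gained without siVps28#2 replicate 2 (1.55, adjusted p = 0.0493), and also with all libraries when siCtrl#1 and siCtrl#2 together served as the reference (1.54, adjusted p = 0.0215). The log2 fold change of siVps28#2 ranged from 0.32 to 1.34 when single libraries were left out. Its lowest value came without replicate 2 of that group, which left replicate 1 beside replicate 3.

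**Figure D2:**
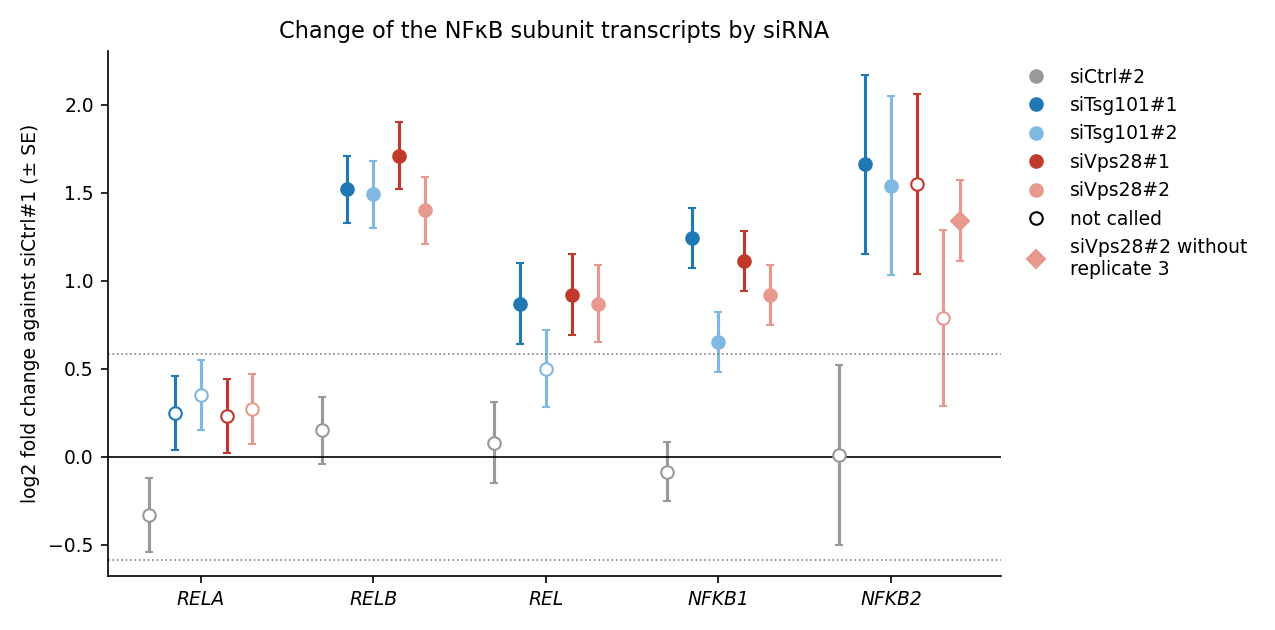
Log2 fold change of each NFκB subunit transcript against siCtrl#1 for the 4 on-target siRNAs and for siCtrl#2, with bars of 1 standard error and dotted lines at 1.5-fold in either direction. Filled symbols are called, open ones are not, and the diamond is NFKB2 with siVps28#2 when replicate 3 is left out (1.34 in place of 0.79).

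Depletion of Tsg101 and depletion of Vps28 were compared directly. In the contrast of both siTsg101 with both siVps28 groups, 0 of the 5 subunit genes were called by edgeR or DESeq2 and 0 had an unadjusted p under 0.05. Of all genes 6.23% were called in either direction, so that 0 of 5 does not set the subunits apart. The log2 difference (siTsg101 minus siVps28) was 0.047 for RELA (95% confidence interval, -0.25 to 0.35), -0.047 for RELB (-0.31 to 0.21), -0.21 for REL (-0.53 to 0.099) and -0.069 for NFKB1 (-0.31 to 0.17). For NFKB2 it was 0.43 (-0.29 to 1.15), and 0.15 (-0.17 to 0.48) without siVps28#2 replicate 3. The intervals of RELA, RELB, REL and NFKB1 thus exclude a 1.5-fold difference in either direction, as does that of NFKB2 without this library, and all of them include 0. Between siVps28#2 and siVps28#1, 0 subunit genes were called by either tool and 0 had an unadjusted p under 0.05 (0.480% of all genes were called). Leaving out single libraries moved the number of all genes called in this contrast from 49 to between 13 and 61, and that between siCtrl#2 and siCtrl#1 from 213 to between 96 and 439.

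Ordered by mean level, both nontargeting groups came first for every subunit. For RELB the order was siCtrl#1 (28.3 ± 3.82 CPM, SD, n = 3), siCtrl#2 (31.7 ± 3.73), siVps28#2 (74.9 ± 11.9), siTsg101#2 (79.8 ± 15.6), siTsg101#1 (81.9 ± 13.5) and siVps28#1 (92.9 ± 11.7). Only the step from siCtrl#2 to siVps28#2 passed the test (log2 difference, 1.24; adjusted p = 1.05e-04). For NFKB1 the order was siCtrl#2 (49.2 ± 3.73 CPM), siCtrl#1 (52.2 ± 7.75), siTsg101#2 (81.8 ± 0.866), siVps28#2 (98.6 ± 10.1), siVps28#1 (112 ± 4.47) and siTsg101#1 (123 ± 29.0). Here too only the step from the controls to the lowest on-target group did (0.65, adjusted p = 0.00736). For REL the groups ran from siCtrl#1 (13.0 ± 2.14 CPM) and siCtrl#2 (13.6 ± 0.624) through siTsg101#2 (18.1 ± 3.11) to siVps28#2 (23.4 ± 3.42), siTsg101#1 (23.8 ± 4.94) and siVps28#1 (24.5 ± 6.50), and no step passed the test. From siCtrl#2 to siTsg101#2 the log2 difference was 0.42 (edgeR, adjusted p = 0.207), although their libraries did not overlap (12.9 to 14.1 against 15.4 to 21.5 CPM). For RELA the groups ran from siCtrl#2 (112 ± 35.0 CPM) and siCtrl#1 (141 ± 25.1) to siVps28#1 (165 ± 30.3), siTsg101#1 (167 ± 34.9), siVps28#2 (170 ± 15.3) and siTsg101#2 (180 ± 17.8), again with no step past the test. For NFKB2 siCtrl#1 (88.1 ± 21.1 CPM), siCtrl#2 (88.7 ± 20.8), siVps28#2 (153 ± 123), siTsg101#2 (257 ± 51.0), siVps28#1 (259 ± 15.2) and siTsg101#1 (279 ± 79.5) followed each other with no step past the test. Without replicate 3 the siVps28#2 mean was 223 ± 22.4 CPM (n = 2) and its step above siCtrl#2 passed (1.33, adjusted p = 7.81e-04).

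Whether the subunits changed by different amounts was asked within each library, where the ratio of 2 transcripts does not depend on the library's scaling. The log2 ratio of RELB to RELA was -2.18, -2.70 and -2.05 with siCtrl#1 and -2.03, -1.89 and -1.42 with siCtrl#2. It was -1.04, -0.92 and -1.09 with siTsg101#1, and -0.73, -1.57 and -1.25 with siTsg101#2. In siVps28#1 libraries it was -0.91, -0.67 and -0.88, and in siVps28#2 libraries -1.10, -1.16 and -1.31. The ratio was thus higher in 11 of 12 on-target libraries than in every nontargeting one, and its mean was higher by 0.99 (exact permutation test, two-sided, siRNA labels permuted within batches; adjusted p = 0.00296 over 10 ratios). For this and every other ratio the test permutes single libraries, so that replicates of the same siRNA count as independent. Its p-value therefore does not measure the spread between siRNAs. NFKB1 gained on RELA by 0.56 (exact permutation test, adjusted p = 0.0188), whereas REL did not pass (0.28, exact permutation test, adjusted p = 0.359). RELB also gained on REL and NFKB1: REL fell against RELB by 0.71 (exact permutation test, adjusted p = 0.00741) and NFKB1 fell against RELB by 0.43 (exact permutation test, adjusted p = 0.02). The last was lost without siCtrl#1 replicate 2 (-0.35, exact permutation test, adjusted p = 0.06) or siCtrl#2 replicate 2 (-0.42, exact permutation test, adjusted p = 0.0533). NFKB1 against REL was 0.28 higher (exact permutation test, adjusted p = 0.106) and passed without siCtrl#1 replicate 3 (0.36, adjusted p = 0.00889) or siVps28#2 replicate 3 (0.31, adjusted p = 0.0333).

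The ratios with NFKB2 turned on siVps28#2 replicate 3. With it, the log2 ratio of NFKB2 to RELA was 0.71 higher in on-target libraries, with an SD of 1.27 among them (exact permutation test, adjusted p = 0.359). Without it, the difference was 1.07 with an SD of 0.26 (exact permutation test, adjusted p = 0.00222). NFKB2 against REL went from 0.43 (adjusted p = 0.751) to 0.82 (adjusted p = 0.00148), and NFKB2 against NFKB1 from 0.15 (adjusted p = 0.905) to 0.51 (adjusted p = 0.0104), both by the same exact permutation test. NFKB2 against RELB was -0.28 with this library (adjusted p = 0.905) and 0.056 without it (adjusted p = 0.656). The noncanonical pair of RELB and NFKB2 therefore showed larger increases than RELA, REL and NFKB1 once this library was left out, and no difference between RELB and NFKB2 was detectable.

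**Figure D3:**
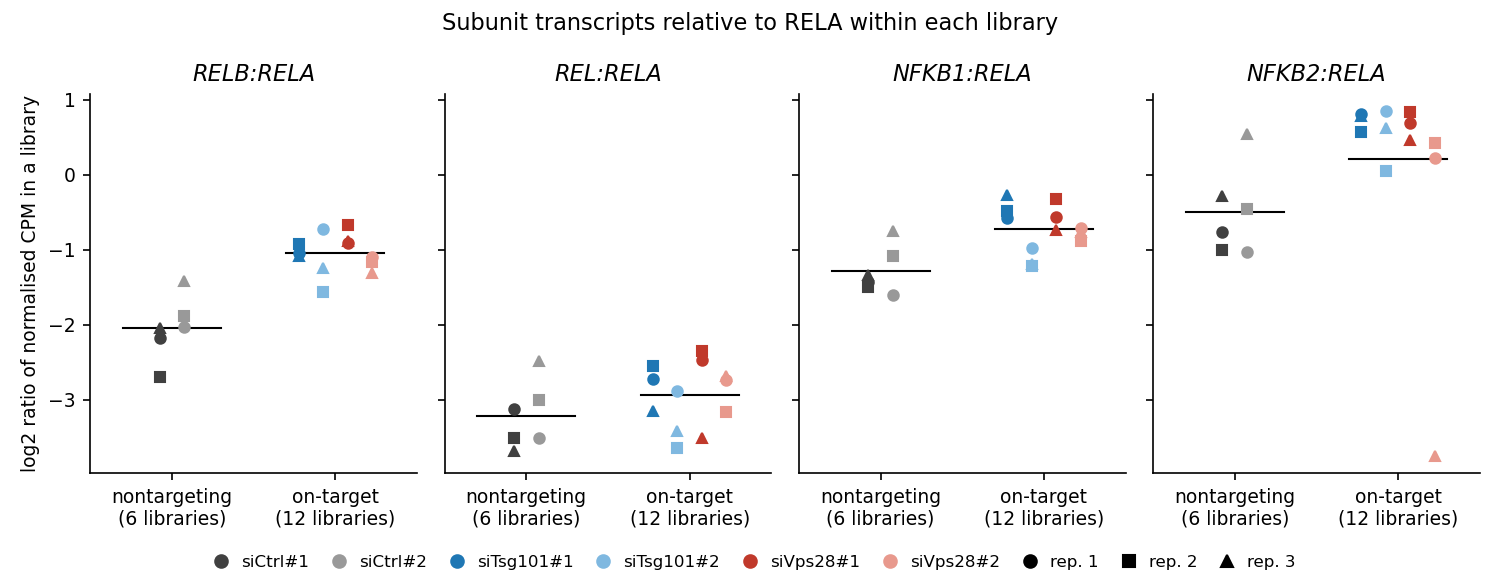
Log2 ratio of each other NFκB subunit transcript to RELA within each library, for 6 nontargeting and 12 on-target libraries, with siRNAs as colours, replicates as symbols and the mean of all libraries of a side as a line. RELB to RELA is higher by 0.99 and NFKB1 to RELA by 0.56 in on-target libraries, and the lowest point for NFKB2 is siVps28#2 replicate 3.

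The other genes of the pathway were described by 7 lists of 70 genes, of which 54 passed the filter on low counts. The lists were chosen with earlier results of these data known, so that their shares are a description and no independent support. Averaged over the 4 on-target siRNAs, 23 of the 54 were called higher (8.56% of all genes), 2 lower (6.54%) and 29 not, and their median log2 fold change was 0.51, beside -0.0035 for all genes tested. Of the 54, 17 were called higher with all 4 siRNAs (2.59% of all genes). These counts include 7 target genes, all called higher in the mean, that passed the filter only through the on-target libraries (their counts in the 6 nontargeting libraries, scaled to 18, stayed at or below 100). All of the 7 except CSF2 are also among the 17, which therefore cannot be set against the 2.59%. Of the other 47, 16 were called higher and 2 lower, with a median of 0.35. Among the 6 IκB proteins, the inhibitors and modulators that bind the subunits, 4 were called higher and 1 lower (median, 1.17), and 5 were called higher with the replicate block. NFKBIA, which encodes IκBα, rose by 2.56 ± 0.23 on the log2 scale (adjusted p = 6.25e-08), NFKBIE, which encodes IκBε, by 1.54 ± 0.22, the nuclear NFKBIZ by 1.20 ± 0.14 and NFKBIB by 0.91 ± 0.13. For NFKBIE siCtrl#2 itself measured 0.59 above siCtrl#1, and the ranges overlapped (8.16 to 20.2 CPM in nontargeting and 19.0 to 43.4 CPM in on-target libraries). The nuclear family member NFKBID was lower in the mean (-0.73 ± 0.23, adjusted p = 0.024) but was called with no single siRNA. The nontargeting siCtrl#2 itself measured -0.51 against siCtrl#1, and the ranges overlapped (3.85 to 7.38 CPM in nontargeting and 2.32 to 4.99 CPM in on-target libraries).

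Of the 8 negative regulators, 3 were called higher and 0 lower (median, 0.52), namely the ubiquitin-editing enzyme TNFAIP3 (1.92 ± 0.30), the deubiquitinase CYLD (1.35 ± 0.14) and the A20-binding TNIP1 (0.99 ± 0.14). For CYLD siCtrl#2 itself measured 0.70 above siCtrl#1, and the ranges overlapped (18.4 to 35.1 CPM in nontargeting and 34.2 to 77.8 CPM in on-target libraries). The TNFAIP3 ranges also overlapped (1.20 to 3.38 against 2.78 to 20.1 CPM). The kinases gave 3 of 7 called higher (median, 0.57), which were MAP3K14 (1.59 ± 0.20), which encodes NIK, and the TAK1-binding adaptors TAB2 (0.67 ± 0.16) and TAB3 (0.65 ± 0.16). This count fell to 1 when siCtrl#2, or siCtrl#1 and siCtrl#2 together, served as the reference. TAB2 averaged 85.3 CPM with siCtrl#2 and 78.6 CPM with siTsg101#2, with which it was not called. TAB3 was not called with either siTsg101 siRNA. The catalytic IκB kinases CHUK (0.0039 ± 0.17) and IKBKB (-0.0089 ± 0.15) were not called and are named here after their values were seen. Of 12 adaptors and ubiquitin ligases, 2 were called higher and 1 lower (median, 0.21), with BIRC3 (3.15 ± 0.28) and BIRC2 (0.82 ± 0.16), which encode cIAP2 and cIAP1, among the higher and TRAF2 (-0.65 ± 0.20, adjusted p = 0.021) as the lower. BIRC2 depended on the reference, since siCtrl#2 itself measured 0.66 above siCtrl#1 (119 against 75.5 CPM). With siTsg101#2 BIRC2 was not called (0.39) and its mean of 99.3 CPM lay below that of siCtrl#2.

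Of 11 receptors, 7 were tested and 0 called in the mean of the 4 siRNAs by edgeR or DESeq2 (3 had an unadjusted p under 0.05; median, 0.045), and of 9 ligands, only TNFSF12 had enough counts (0 called by either tool, 1 with an unadjusted p under 0.05; -0.47 ± 0.22). By single siRNA, the TNF receptor TNFRSF1A was called higher with siTsg101#1 (0.84) and siTsg101#2 (0.72) and measured 0.071 and -0.061 with siVps28#1 and siVps28#2. Its difference between siTsg101 and siVps28 was 0.78 (edgeR, adjusted p = 2.75e-05). The TRAIL receptor TNFRSF10B was called higher with siTsg101#1 (0.81) and the lymphotoxin receptor LTBR lower with siVps28#2 (-0.67). These receptors are named after their values were seen. The ligands TNF, LTA, LTB and IL1B had at most 11 counts over all 18 libraries together (named after their values were seen), and this depth does not show a change of such genes. Of the 14 target genes 13 were tested. Of these, CXCL1, CXCL2, CXCL3, CXCL8, CCL20, TNFRSF9 and CSF2 passed the filter only through the on-target libraries, and as such genes had to differ, their calls support nothing. Of the other 6, 4 were called higher and 0 lower (median, 0.99). The chemokine CXCL8 rose by 6.53 ± 0.35, from 0.925 CPM with siCtrl#1 to between 40.9 and 236 CPM in on-target libraries. Among the other 6, ICAM1, an adhesion molecule, rose by 2.15 ± 0.23 and the mitochondrial superoxide dismutase SOD2 by 1.92 ± 0.22. The calls of PLAU (1.11 ± 0.20) and BCL2A1 (0.87 ± 0.24) were against siCtrl#1, and siCtrl#2 itself measured 0.95 and 0.58 above it. By single siRNA, PLAU was not called with siTsg101#2 or siVps28#1, and BCL2A1 was not called with siTsg101#2 (both named after their values were seen). CXCL3 had at most 2 counts in any siCtrl#1 library and 27 to 85 in on-target ones. TNFRSF9 had 0 counts in all siCtrl#1 libraries and 4 to 173 in on-target ones. The mean of all on-target libraries was at least 13.3-fold higher, computed against 3 counts per library. That mean was drawn up by siTsg101#1 (22.7 CPM), beside 3.03, 5.23 and 5.25 CPM with siTsg101#2, siVps28#1 and siVps28#2.

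Of the 54 pathway genes, 9 were called between siTsg101 and siVps28, 7 higher and 2 lower with siTsg101 (6.23% of all genes in either direction). ICAM1 rose by 3.29 and 2.57 with siTsg101#1 and siTsg101#2 and by 1.36 and 1.40 with siVps28#1 and siVps28#2, a log2 difference of 1.55 (edgeR, adjusted p = 6.39e-07). TNFAIP3 rose by 3.01 and 2.35 against 1.24 and 1.09 (difference, 1.52; adjusted p = 1.54e-05). The nuclear IκB family member BCL3 measured 2.51 and 1.82 against 0.45 and -0.19 (difference, 2.03; adjusted p = 6.87e-05). The others called higher with siTsg101 were TNFRSF1A, SOD2, MAP3K7 and TRAF5, and those called lower were TAB3 and CSF2 (all 9 named after their values were seen).

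**Figure D4:**
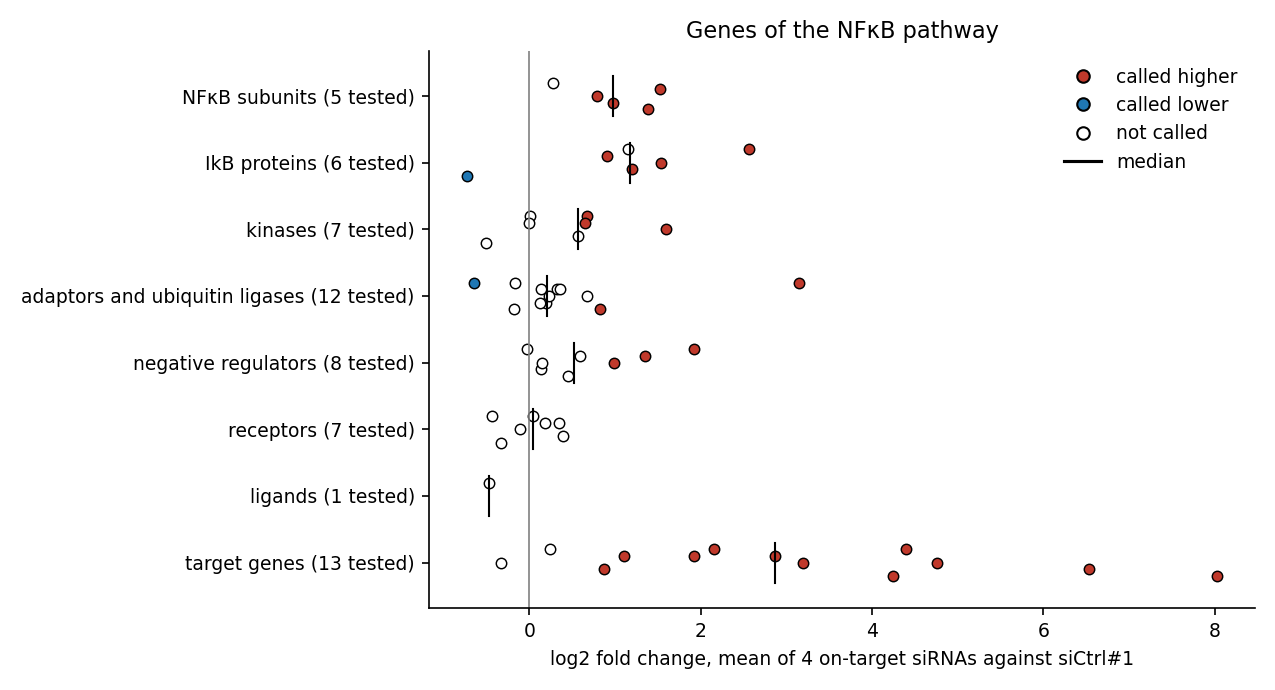
Log2 fold change in the mean of 4 on-target siRNAs against siCtrl#1 for the 5 NFκB subunit genes and the tested genes of 7 pathway lists, 1 point per gene with the median as a line. In the receptors and ligands none of 8 is called, 7 of the target genes passed the filter only through the on-target libraries, and the values above 4 except CXCL8 are fitted for genes of at most 2 counts in each siCtrl#1 library.

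The genes most like each subunit over the 18 libraries were taken by Pearson's r of log2 normalised CPM, as a description, since these libraries share 6 siRNA groups and 3 batches. RELB was most like CXCL8, MARCKS and IRAK2 (r = 0.95 for each), and NFKB1 was most like CD82 (r = 0.98), KDM6B and NFKBIA (r = 0.95 for both). REL was most like PLK2 (r = 0.90), BIRC3 and DPP3 (r = 0.89 for both). These genes of RELB, NFKB1 and REL had on-target libraries above all nontargeting ones, as did the subunits themselves. RELA was most like IRGQ (r = 0.95), RGS19 (r = 0.87) and SLC25A39 (r = 0.85), none of which was called in the mean of the 4 siRNAs (adjusted p = 0.269, 0.107 and 0.698). NFKB2 was most like RSL24D1 (r = 0.90), GOLGA7 (r = 0.89) and CCDC126 (r = 0.85), which like NFKB2 had their lowest on-target value far below the control range (5.03, 9.03 and 0 CPM). Without siVps28#2 replicate 3 the genes most like NFKB2 were MMP10, RELB and IRAK2 (r = 0.95 for each, n = 17). Among the subunits themselves, r between RELB and NFKB2 was 0.60 over 18 and 0.95 over 17 libraries, whereas r between RELA and RELB was 0.66 over either.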

How the data were processed

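Total RNA was amplified by the authors with an Ion AmpliSeq Transcriptome panel and read on an Ion Proton. Alignment to hg19 used the Torrent Mapping Alignment Program, and counting used HTSeq 0.6.0 (version per the submitters' processing notes). The deposited values are raw read counts per transcript target, 1 list per library, and the strand setting of the counting is not given in the sources used here, so that sense and antisense reads cannot be told apart. Summary rows (no feature, 48.23 to 49.07% of reads, and others, 4.99 to 6.04%) and 10 spike-in targets with 1 read in all were left out. Of 20802 targets, 20224 were matched to a symbol. The authors' filter of more than 100 counts over all libraries kept 10632, and leaving out 420 noncoding ones gave 10212.

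Counts were scaled by TMM and fitted with edgeR 4.0.16 (R 4.3.3), 6 groups in 1 model, with the quasi-likelihood test and Benjamini-Hochberg adjustment over all tested genes. Standard errors are the absolute log2 fold change divided by the square root of that test's F statistic. Confidence intervals are at 95% from these and a t quantile, so that both are approximate. Ratios were tested by exact permutation of single libraries within batches. Genes named from a list are at most 5 with the smallest p among those called, and any called lower, unless said otherwise. The fits were tested on simulated data. Alternatives were DESeq2 1.42.0, RLE scaling, no filter, at least 10 counts in every library, siCtrl#2 or both nontargeting siRNAs as the reference, a replicate block, permutation without batches, a pseudocount of 0.5 CPM and leaving out each library.

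The replicate number pairs the samples, since the labels give it as the batch. Deviations from group means of same-numbered libraries correlated with a mean r of 0.15 (range, -0.15 to 0.39 over 45 pairs, 30 of them over 0.1), and 17 of 18 libraries correlated best with their own number.

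The members and the pathway lists were chosen with earlier results of these data known. Exon overlap and shared sequence were read from GRCh37 with GENCODE, over whole transcripts, since the amplicon positions were not analysed here. The counts are of amplified reads and not of molecules, so that an interval of a count covers counting error only.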

Additional observations from a re-analysis of the deposited data

Results flagged for a closer look

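NFKB1 differed between the siRNAs against Tsg101 by a test of the difference itself. It measured 80.8 to 82.5 CPM with siTsg101#2 and 91.3 to 148 CPM with siTsg101#1, a log2 difference of -0.59 ± 0.16 (SE; edgeR, adjusted p = 0.0247). The value lies just past the 1.5-fold threshold, and the call was lost without siTsg101#1 replicate 1 (-0.56, adjusted p = 0.0794) or replicate 3 (-0.43, adjusted p = 0.191), and without siTsg101#2 replicate 1 (-0.59, adjusted p = 0.08), replicate 2 (-0.62, adjusted p = 0.0584) or replicate 3 (-0.60, adjusted p = 0.0679). With no filter on low counts it was -0.58 and fell short of 1.5-fold. TSG101 itself measured 3.27 to 4.75 CPM with siTsg101#1 and 2.49 to 4.99 CPM with siTsg101#2. What lies behind the difference was not tested.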

How the results depend on the processing

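Over 84 results and 1994 comparisons with an alternative, 1883 kept their direction and their side of the threshold (counts, within 1.5 times the main count), 68 became weaker, 22 became stronger and 21 reversed. With siCtrl#2 as the reference, the mean log2 fold change of RELA was 0.60 and was called, and genes called higher with all 4 siRNAs fell from 264 to 160, genes called with siVps28#1 from 886 to 450 and kinase genes called higher from 3 to 1. With at least 10 counts in every library, pathway genes called higher fell from 23 to 15 and target genes from 11 to 4, since fewer genes were tested. Genes called between siCtrl#2 and siCtrl#1 rose from 213 to 359 without a filter, and those between siVps28#2 and siVps28#1 from 49 to 149 (81 with DESeq2). Without any filter NFKB2 was called with siVps28#1 (adjusted p = 6.53e-14) and siVps28#2 (adjusted p = 4.27e-04) at nearly the same fold changes, and its difference between siVps28#2 and siVps28#1 had an adjusted p of 0.00811, and the cause was not tested. DESeq2 lost the NFKB2 call with siTsg101#2 (adjusted p = 0.0825).

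Leaving out 1 library at a time gave 0.17 to 0.42 for the mean log2 fold change of RELA and 1.24 to 1.59 for that of NFKB2, 186 to 275 genes and 1 to 3 subunit genes called higher with all 4 siRNAs, and 22 to 25 pathway genes called higher. The 21 reversals were in differences that passed no test. For siTsg101 minus siVps28, the range was -0.021 to 0.13 for RELA, -0.13 to 0.016 for RELB and -0.15 to 0.017 for NFKB1. For siCtrl#2 minus siCtrl#1, it was -0.061 to 0.17 for REL, -0.19 to 0.01 for NFKB1 and -0.20 to 0.22 for NFKB2. For siTsg101#2 minus siTsg101#1, it was -0.071 to 0.22 for RELA, -0.19 to 0.077 for RELB and -0.35 to 0.038 for NFKB2. For siVps28#2 minus siVps28#1, it was -0.087 to 0.19 for RELA and -0.25 to 0.097 for REL. The log2 ratio of NFKB2 to RELB ranged from -0.39 to 0.056, the latter without siVps28#2 replicate 3.

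The replicate block changed no call of a subunit gene. It raised pathway genes called higher from 23 to 24 and IκB genes among them from 4 to 5. It moved genes called between siCtrl#2 and siCtrl#1 from 213 to 327 and between siVps28#2 and siVps28#1 from 49 to 74, and genes called higher with all 4 siRNAs from 264 to 311. The depth of 2561790 reads in the smallest library leaves REL and most ligands and chemokines at few reads in the controls.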
